A study of Homo sapiens with 2 samples.

Results

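The genes examined here encode the core of the HIF (hypoxia-inducible factor) oxygen sensing pathway. They are the alpha subunits HIF1A, EPAS1 and HIF3A, their partner ARNT, the prolyl hydroxylases EGLN1 and EGLN2, the ubiquitin ligase receptor VHL and the asparaginyl hydroxylase HIF1AN. These 8 genes were chosen by name from knowledge of the pathway, with earlier results of these data known. They were looked up among the 24991 gene names present in both expression tables, also inside names that several genes share. All 8 were found, each at a single locus per library. The values compared were the FPKM (sequenced fragments per unit of transcript length, corrected for how many the library mapped in all) that the authors deposited, with the lower and upper bound that Cufflinks puts around each.

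RNA came from PLC cells, an established human liver cancer cell line grown in DMEM with fetal bovine serum. The EV line carried the empty lentiviral pCDH vector, and the PRSS35 line stably expressed the human coding sequence of PRSS35, a secreted member of the serine protease family. The paper describes selecting its stable lines with puromycin. No other treatment is named for the RNA samples, and the labels give no hypoxic condition. Expression of the transgene comes from the vector and not from the gene's own promoter, and the labels name no clones. Each line was sequenced as 1 library, so the differences below were not checked in replicates and carry no p-values. The bounds describe the error of counting and assigning fragments inside a library, and variation between cultures was not measured. Gene-level read counts were not used. For the expressed members the bounds lay between 3.86% and 9.53% of the FPKM away from it, with a median of 6.09%.

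PRSS35 itself measured 0.643 FPKM (bounds 0.445 to 0.841) in EV and reached 1836 FPKM (bounds 1759 to 1912) in PRSS35, as the labels have it. Of 8 liver genes, 7 reached 1 FPKM in both libraries, with SERPINA1 highest at 2528 and 4239 FPKM. ALB was low for a liver marker, at 4.05 and 5.21 FPKM. The 4 leukocyte markers summed to 0.0214 FPKM in EV and 0.284 in PRSS35, and the 4 endothelial markers to 0.0373 and 0.0307. The 4 stromal markers summed to 1.72 and 2.03 FPKM, most of it from PDGFRB. PTPRC, CD3E, KDR, COL3A1 and DCN were listed at 0 in both libraries. In RNA from whole cultures, fewer cells of a type and less RNA per cell cannot be told apart.

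In cells with enough oxygen, EGLN enzymes add a hydroxyl group to prolines of the alpha subunits. The VHL protein binds the hydroxylated form and brings it to a ubiquitin ligase, and the proteasome destroys it. HIF1AN hydroxylates an asparagine near the end of the alpha subunit, which keeps the coactivators EP300 and CREBBP away. When oxygen falls these reactions slow, and the alpha subunit pairs with ARNT and binds DNA at hypoxia response elements. Control of the alpha subunits is thus largely at the protein level, which RNA does not measure.

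The sites that the hydroxylases act on are shown first, because they separate the alpha subunits into those that both kinds of enzyme can act on and HIF3A. The sequences are from the coding strand of the canonical transcripts on GRCh37, the same assembly as the hg19 of the tables. Capitals mark the codons of the motif leucine-x-x-leucine-alanine-proline, which ends in the target proline, or of cysteine-glutamate-valine-asparagine, which ends in the target asparagine. All lie within a single coding exon on the plus strand.
HIF1A proline 402, exon 9, chr14:62203755-62203796: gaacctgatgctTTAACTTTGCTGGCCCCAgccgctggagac
EPAS1 proline 405, exon 9, chr2:46603829-46603870: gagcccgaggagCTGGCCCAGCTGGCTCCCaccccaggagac
HIF1A proline 564, exon 12, chr14:62207476-62207517: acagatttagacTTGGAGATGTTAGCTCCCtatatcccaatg
EPAS1 proline 531, exon 12, chr2:46607375-46607416: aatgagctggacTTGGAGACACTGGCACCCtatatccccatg
HIF3A proline 492, exon 12, chr19:46832470-46832511: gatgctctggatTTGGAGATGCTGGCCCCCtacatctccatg
HIF1A asparagine 803, exon 15, chr14:62213708-62213743: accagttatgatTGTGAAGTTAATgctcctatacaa
EPAS1 asparagine 847, exon 16, chr2:46611704-46611739: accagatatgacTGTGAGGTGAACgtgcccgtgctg
HIF1A, of 826 residues, and EPAS1, of 870, each held 2 proline motifs and 1 asparagine motif. HIF3A, of 669 residues, held 1 proline motif and no match to the asparagine motif. Of the 42 bases around the proline, 31 were identical between HIF1A proline 564 and EPAS1 proline 531, 33 between EPAS1 proline 531 and HIF3A proline 492, and 26 between HIF1A proline 402 and EPAS1 proline 405. No run of 50 bases was shared between the transcripts of any members.

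Among the alpha subunits, EPAS1 was by far the most abundant transcript. EPAS1, which encodes HIF-2 alpha, stood at 52.0 FPKM (bounds 49.8 to 54.2) in EV and at 54.5 FPKM (bounds 52.0 to 57.1) in PRSS35. The bounds overlapped, and the log2 ratio of PRSS35 to EV, taken on FPKM + 1, was 0.07. Taking the opposite ends of the bounds gave a range of -0.06 to 0.19. The locus lies on chromosome 2 from 46524541 to 46613842 of hg19, and starts inside the annotated gene, which begins at 46520806.

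HIF1A, the alpha subunit found in most tissues, was at 4.70 FPKM (bounds 4.25 to 5.15) in EV and at 5.04 FPKM (bounds 4.57 to 5.50) in PRSS35. Again the bounds overlapped, with a log2 ratio of 0.08 and a range of -0.14 to 0.31. The level of EPAS1 was thus 11.1 times that of HIF1A in EV (9.67 to 12.8 from the ends of the bounds) and 10.8 times in PRSS35 (9.45 to 12.5). Both loci were assembled from reads in both libraries, so these ratios per length also rest on transcript models whose error was not measured. The HIF1A locus lies on chromosome 14 from 62162119 to 62214977. Loci named for antisense RNAs overlap both of its ends. HIF1A-AS1 overlaps by 423 bases and was listed at 0 in both libraries, whereas HIF1A-AS2 overlaps by 1221 bases at the 3′ end and stood at 2.45 FPKM (bounds 2.02 to 2.89) in EV and 2.35 FPKM (bounds 1.92 to 2.78) in PRSS35. The library kit is not named as one that keeps strand, so reads of HIF1A and HIF1A-AS2 in the shared stretch cannot be told apart.

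**Figure D1:**
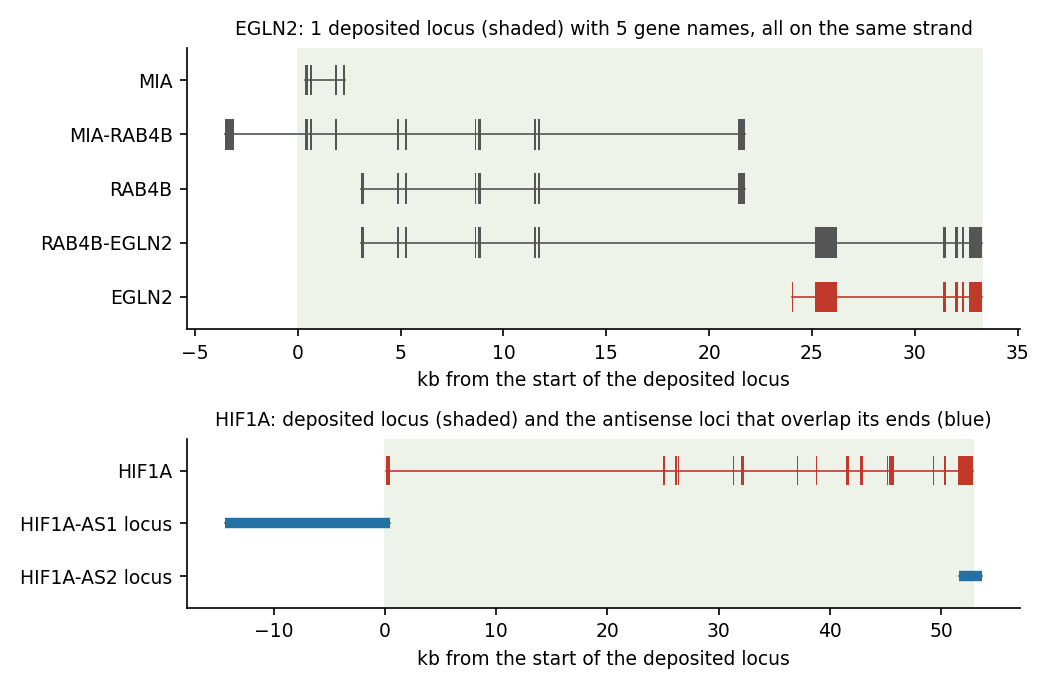
Maps of the EGLN2 (top) and HIF1A (bottom) loci in kb from the start of the deposited locus, which is shaded. Boxes are exons of the canonical GRCh37 transcripts, lines are introns, red marks the member gene, and blue bars are deposited loci of antisense RNAs, of which HIF1A-AS2 overlaps the last HIF1A exon by 1221 bases.

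HIF3A, a shorter and more tissue-restricted alpha subunit, was close to 0 in both libraries. It was at 0.00577 FPKM (bounds 0 to 0.0706) in EV and was listed at 0 in PRSS35. It is the only member under a mean of 1 FPKM, the level from which genes are called expressed here. A locus named for the small nuclear RNA pseudogene RNU6-66P overlaps it by 9504 bases and was listed at 0 in both libraries. ARNT, the shared beta subunit that every alpha subunit needs to bind DNA, was at 6.05 FPKM (bounds 5.58 to 6.51) in EV and 6.93 FPKM (bounds 6.45 to 7.41) in PRSS35. These bounds overlapped narrowly, and the log2 ratio was 0.17 with a range of -0.01 to 0.35. Per transcript length, ARNT was 1.29 times as abundant as HIF1A in EV and 1.38 times in PRSS35. EPAS1 exceeded ARNT 8.60-fold in EV and 7.87-fold in PRSS35. The ARNT locus was also assembled from reads in both libraries, so its ratios carry the same limit as that of EPAS1 to HIF1A.

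Of the prolyl hydroxylases among the members, only EGLN1 had a locus under its own name. EGLN1, also called PHD2 and known as the main oxygen sensor for HIF1A in many cells, was at 4.63 FPKM (bounds 4.34 to 4.93) in EV and at 5.63 FPKM (bounds 5.30 to 5.95) in PRSS35. The bounds lay apart, with PRSS35 1.21-fold higher and a log2 ratio of 0.23 (0.09 to 0.38). The locus lies on chromosome 1 from 231499497 to 231560790. Of the 50-base runs of the EGLN1 transcript, 69.7% are shared with other gene names, mostly with a gene annotated at the same place. Genes elsewhere in the genome, EGLN1P1 among them, hold 2.45% of the runs. How the authors' processing assigned such reads is not given in the sources used here.

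EGLN2, also called PHD1, could not be read by itself. In both libraries it was part of 1 locus of 33265 bases on chromosome 19, from 41281082 to 41314346, whose name joins EGLN2, MIA, MIA-RAB4B, RAB4B and RAB4B-EGLN2. The annotated EGLN2 gene takes up 28.4% of that stretch. RAB4B encodes a small GTPase of endosomal recycling, MIA encodes a secreted protein, and the hyphenated names are readthrough transcripts on the same strand. This locus was at 216.4 FPKM (bounds 208.0 to 224.8) in EV and at 186.5 FPKM (bounds 179.2 to 193.7) in PRSS35. The bounds lay apart with PRSS35 lower, at 0.862 times the EV level and a log2 ratio of -0.21 (-0.33 to -0.10). The value is a sum over these genes, and the part that EGLN2 contributes in either library was not measured. When each library was scaled to its total FPKM, unnamed loci included, the log2 ratio turned to 0.49, but this scaling raised the expressed-gene median from 0.06 to 0.68, so that the EGLN2 locus stayed below the median gene under both.

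Promoter windows of EGLN1 and EGLN2 are shown because they hold the core of the hypoxia response element. They are RefSeq sequences on GRCh38.p14, another assembly than that of the expression tables. Each was cut to the 80 bases before the start of transcription, with the match in capitals.
EGLN1 promoter, minus strand, chr1:231422288-231422367: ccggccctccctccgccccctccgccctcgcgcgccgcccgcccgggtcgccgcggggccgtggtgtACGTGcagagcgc
EGLN2 promoter, plus strand, chr19:40799111-40799190: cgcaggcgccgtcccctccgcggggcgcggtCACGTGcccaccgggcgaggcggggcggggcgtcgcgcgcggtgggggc
The match begins 13 bases before the start of transcription of EGLN1. In EGLN2 it begins 49 bases before the start, and there the letters read the same on both strands. A further EGLN2 window, chr19:40799272-40799571, held no match and is not shown. The search was for ACGTG or GCGTG on either strand, from 250 bases before to 50 bases after each start. At least 1 match was present in a window of 5 of the 7 members with a RefSeq entry, against 52.4% of all 27305 genes. Among the HIF target genes described below it was present in 24 of 26. These short letters are common, at 48.4% of all windows, and a match is a description and not a site of binding.

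VHL, which recognises the hydroxylated alpha subunit, had the largest ratio of the members. It was at 6.92 FPKM (bounds 6.39 to 7.44) in EV and at 9.07 FPKM (bounds 8.45 to 9.68) in PRSS35. The bounds lay apart, with PRSS35 1.31-fold higher and a log2 ratio of 0.35 (0.16 to 0.53). Of the expressed genes, 87.7% had a lower log2 ratio. The locus lies on chromosome 3 from 10183319 to 10195354. HIF1AN, also called FIH, was at 12.9 FPKM in each library, with bounds of 12.4 to 13.4 in EV and 12.2 to 13.6 in PRSS35. Its log2 ratio was 0.00. The HIF1AN locus on chromosome 10 runs from 102295641 to 102313681 within an annotated gene that extends to 102319755. It kept its annotated identity in EV and was assembled anew from reads in PRSS35, so its FPKM in each library may refer to different transcript models.

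**Figure D2:**
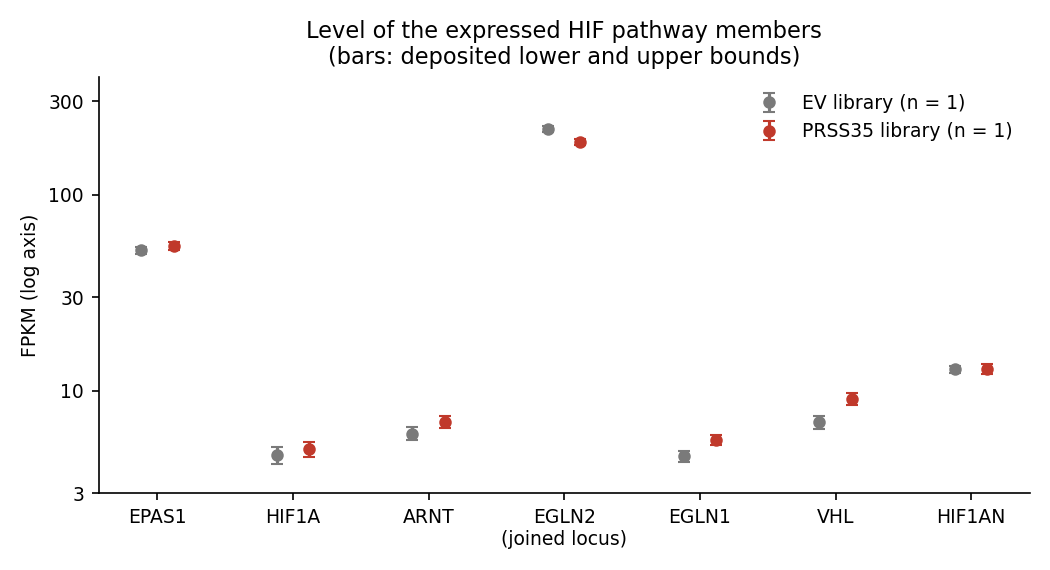
FPKM (log axis) of the 7 expressed members in the EV (grey) and PRSS35 (red) libraries, 1 library each, with the deposited lower and upper bounds as bars. EPAS1, near 52 to 55 FPKM, stands above HIF1A and ARNT, and the joined EGLN2 locus is highest at 216.4 and 186.5 FPKM. HIF3A, at 0.00577 FPKM and 0, is not drawn.

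The order of the levels was nearly the same in both libraries. In EV it ran from the EGLN2 locus through EPAS1, HIF1AN, VHL, ARNT, HIF1A and EGLN1 to HIF3A. Neighbours whose bounds overlapped were VHL with ARNT and HIF1A with EGLN1. In PRSS35 the first 5 places were the same, and EGLN1 and HIF1A, whose bounds again overlapped, were listed the other way round. VHL lay clear of ARNT in PRSS35, at 1.31 times its level, compared with 1.14 times in EV. VHL exceeded EGLN1 1.49-fold in EV and 1.61-fold in PRSS35. HIF1AN exceeded EGLN1 2.78-fold in EV (2.51 to 3.08) and 2.29-fold in PRSS35 (2.04 to 2.57). The HIF1AN locus was assembled from reads only in PRSS35, so these ratios may rest on different transcript models.

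None of the 8 members reached a 2-fold difference on the log2(FPKM + 1) scale in either direction. Over all 10133 expressed genes, 1.89% were higher and 1.84% lower by 2-fold or more. The median log2 ratio of the members was 0.08, next to 0.06 over all expressed genes. EGLN1 and VHL had bounds apart with PRSS35 higher, which is 2 of the 7 expressed members, and 24.7% of all expressed genes did so. The EGLN2 locus had bounds apart with PRSS35 lower, as did 14.3% of all expressed genes. Both shares are near those of the whole table, and so are no result about the members. EGLN1 and VHL are the members that kept their annotated locus in both libraries. Among the 2390 expressed genes of that kind, 23.5% had bounds apart with PRSS35 higher and 6.86% with PRSS35 lower. HIF1A, EPAS1, ARNT and the EGLN2 locus were assembled from reads in both libraries.

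**Figure D3:**
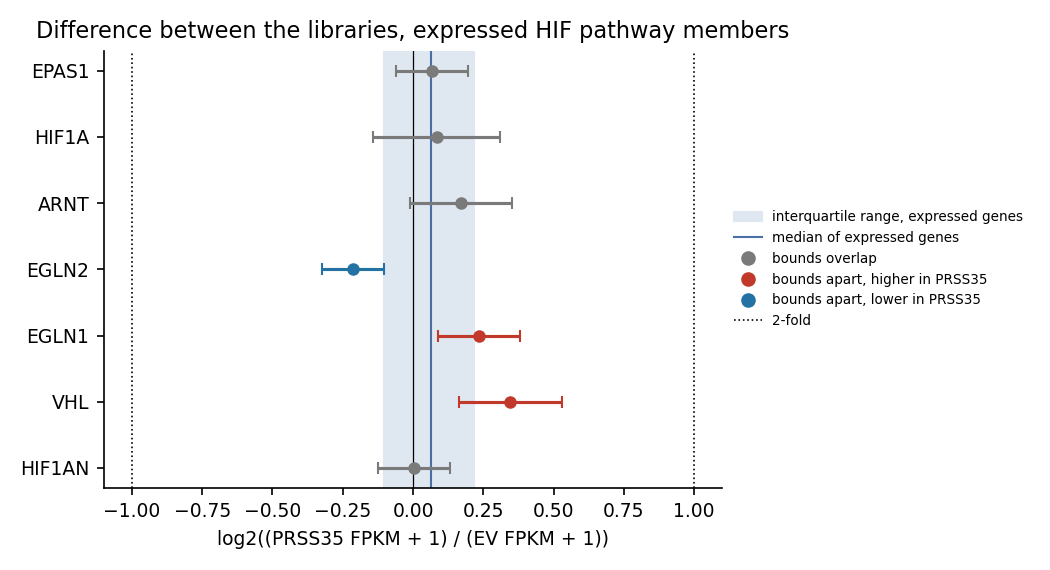
Log2((PRSS35 FPKM + 1) / (EV FPKM + 1)) of the 7 expressed members, with bars from the opposite ends of the deposited bounds. The shaded band is the interquartile range of 10133 expressed genes (-0.10 to 0.22) and the blue line their median (0.06). VHL, at 0.35, and EGLN1, at 0.23, lie to the right of it and the joined EGLN2 locus, at -0.21, to the left, and no bar reaches the dotted 2-fold lines.

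The proteins that complete the VHL ubiquitin ligase are the adaptors ELOB and ELOC, the scaffold CUL2 and the RING protein RBX1. All 4 were expressed. ELOB was at 766.5 FPKM (bounds 738.4 to 794.6) in EV and 651.2 FPKM (bounds 626.7 to 675.8) in PRSS35, apart and lower, as were 14.3% of all expressed genes. RBX1 stood at 106.6 and 101.0 FPKM, ELOC at 12.1 and 13.3 FPKM and CUL2 at 2.17 and 2.11 FPKM, each with overlapping bounds. CUL2 was therefore the least abundant transcript of the complex in both libraries. The median log2 ratio of the 4 was -0.05.

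Other oxygenases that use molecular oxygen numbered 6, of which 4 were expressed. EGLN3, the remaining HIF prolyl hydroxylase, was near 0, at 0.0166 FPKM in EV and 0.0519 FPKM in PRSS35 with overlapping bounds. ADO, an oxygen-sensing thiol dioxygenase, was at 4.70 FPKM (bounds 4.28 to 5.12) in EV and 5.62 FPKM (bounds 5.16 to 6.07) in PRSS35. It was the only gene of the list with bounds apart, with PRSS35 higher, as did 24.7% of all expressed genes. P4HTM, a transmembrane prolyl hydroxylase, was counted with a neighbour in a joined locus, at 49.99 and 52.36 FPKM. The median log2 ratio of the 4 expressed genes was 0.11.

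Of 14 genes known to act on the stability of HIF alpha or EGLN proteins, all were expressed, with a median log2 ratio of -0.05. Bounds lay apart with PRSS35 lower for 5 and higher for 2 of the 14, beside 14.3% and 24.7% of all expressed genes. WTIP, of the LIM domain proteins that bring EGLN1 and VHL together, was at 31.5 FPKM (bounds 29.6 to 33.4) in EV and 18.4 FPKM (bounds 17.3 to 19.5) in PRSS35, a log2 ratio of -0.74. SIAH2, a ubiquitin ligase for EGLN proteins, was at 28.7 FPKM in EV and 21.5 FPKM in PRSS35. FKBP8, which binds EGLN1, and the ligase STUB1 and the chaperone HSP90AA1 were also lower with bounds apart. WTIP and SIAH2 were assembled from reads in EV and kept their annotated locus in PRSS35. AJUBA and LIMD1, of the same list, changed in the same way, with log2 ratios of 0.09 and -0.06 and overlapping bounds. The part of this change of transcript model in the ratios was not tested. OS9 and the chaperone HSP90AB1 were higher with bounds apart, the latter at 722.6 FPKM in EV and at 797.8 FPKM in PRSS35, where its locus is joined with another gene. RACK1 was the most abundant gene of the list, at 2370 and 2292 FPKM with overlapping bounds.

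Of 9 cofactors of HIF transactivation, 8 were expressed. The coactivators EP300, at 4.05 and 3.93 FPKM, and CREBBP, at 3.19 and 3.46 FPKM, had overlapping bounds. CITED2, which competes with HIF for these coactivators and is itself a HIF target, was at 44.4 FPKM (bounds 41.8 to 47.0) in EV and 73.1 FPKM (bounds 69.3 to 77.0) in PRSS35. CITED4 was at 184.6 FPKM in EV and 163.5 FPKM in PRSS35, apart and lower. APEX1, a redox factor, was at 168.0 and 197.6 FPKM, apart and higher. The CITED4 locus was assembled from reads only in PRSS35 and the APEX1 locus only in EV. What these changes of transcript model contribute was not tested. KAT5, an acetyltransferase, had an EV value of 0 and a PRSS35 value of 21.3 FPKM. An exact 0 in such a table can be a failed estimate, so no ratio is given for it. With KAT5 counted in, the median log2 ratio of the list was 0.07, and 3 of the 8 genes were higher and 1 lower with bounds apart, beside 24.7% and 14.3% of all expressed genes.

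Genes whose transcription HIF is known to raise formed the last list, with 23 of 30 expressed. Bounds lay apart with PRSS35 higher for 15 of the 23 and lower for 1, beside 24.7% and 14.3% over all expressed genes. The median log2 ratio was 0.37, beside 0.06. With the 22 genes that were above 0 in both libraries it was 0.33, with 14 higher and 1 lower. In the 11 that kept their annotated locus in both libraries it was 0.42, with 8 higher and 0 lower, beside 23.5% and 6.86% of all genes of that kind. Several genes of this list had been seen to be higher in an earlier reading of these libraries, so the count is a description of them and not independent support.

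DDIT4, an inhibitor of mTORC1 signalling, was at 126.9 FPKM (bounds 123.6 to 130.2) in EV and 241.0 FPKM (bounds 236.4 to 245.7) in PRSS35, a log2 ratio of 0.92. PGK1, a glycolytic kinase and the most abundant gene of the list, was at 292.8 and 523.0 FPKM (0.83), and LDHA, which turns pyruvate into lactate, was the next most abundant at 260.4 and 340.0 FPKM (0.38). These genes had bounds clearly apart. DDIT4 kept its annotated locus in both libraries, whereas the PGK1 and LDHA loci were assembled from reads in both. The stress response gene NDRG1 had a log2 ratio of 0.79, from 13.3 and 23.6 FPKM. Its locus was the annotated one in EV and was assembled from reads in PRSS35, and the part of that change was not tested. ANKRD37 was at 2.90 FPKM (bounds 2.12 to 3.68) in EV and 5.37 FPKM (bounds 4.32 to 6.43) in PRSS35, a log2 ratio of 0.71, as was that of CITED2.

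PDK1, a kinase that inhibits pyruvate dehydrogenase in mitochondria, went the other way. It was at 9.02 FPKM (bounds 6.89 to 11.2) in EV and 2.54 FPKM (bounds 2.201 to 2.889) in PRSS35, with a log2 ratio of -1.499. Its locus was assembled from reads in both libraries, and its EV bounds were wide. ANGPTL4, a secreted inhibitor of lipoprotein lipase, was listed at 0 in EV, where its locus was assembled from reads, and had 37.3 FPKM in PRSS35, where the annotated locus was kept. As for KAT5, no ratio is given. PDK1, ANGPTL4 and KAT5 were the only listed genes past 2-fold among 58 expressed genes of the 6 lists, which makes 2 higher and 1 lower, beside 1.89% and 1.84% of all expressed genes. The 2-fold call for PDK1 was lost when the pseudocount was 5 FPKM and when each library was scaled to its total FPKM.

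**Figure D4:**
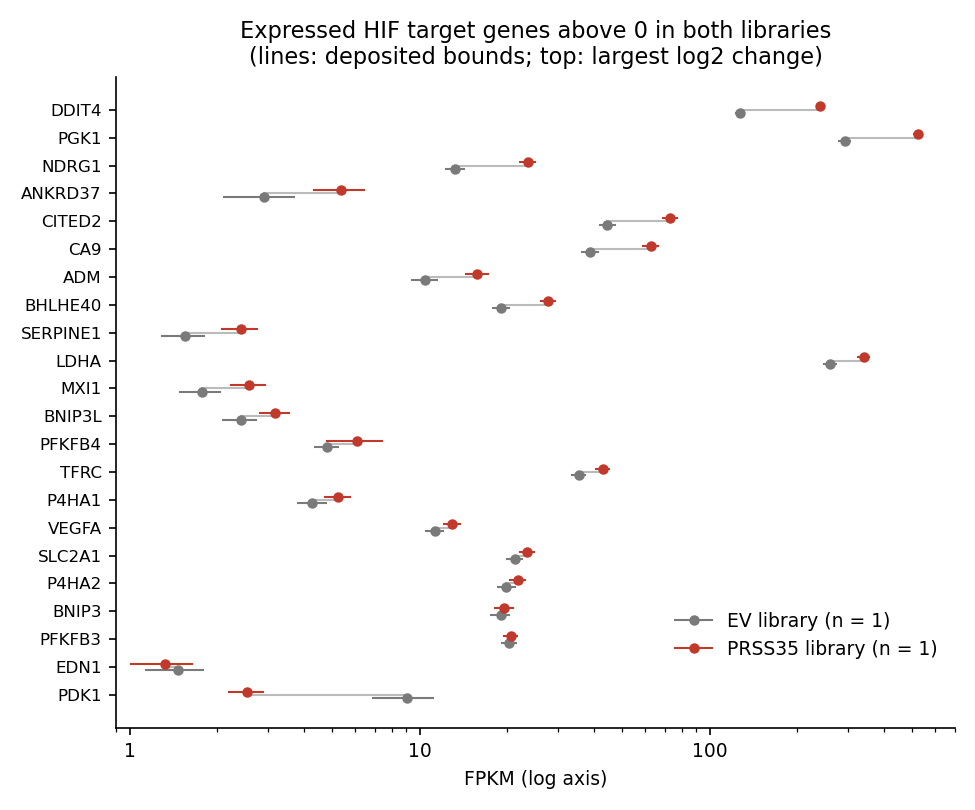
FPKM (log axis) of the 22 expressed HIF target genes above 0 in both libraries, EV in grey and PRSS35 in red (1 library each), with the deposited bounds as lines and genes ordered by log2 ratio. The PRSS35 point lies to the right of the EV point for 20 genes, with DDIT4 at the top (126.9 and 241.0 FPKM), and to the left for EDN1, whose bounds overlap, and PDK1.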

How the data were processed

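Total RNA of 2 PLC lines was sequenced on a HiSeq2500, 1 library each. Per the labels the authors aligned reads with TopHat2 2.1.0 (builds hg19 and dm6 are named) and used Cuffdiff 2.2.1. The paper's methods name Cufflinks. The annotation release and options are not given in the sources used here. The authors deposited FPKM per locus with lower and upper bounds.

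Loci were matched by gene name, the FPKM and bounds of loci sharing a name were summed, and alternate haplotypes, all listed at 0, were left out. A gene was called expressed from a mean of 1 FPKM upwards. Ratios are log2((PRSS35 + 1) / (EV + 1)), a scale that understates changes of low genes, and 2-fold was the threshold. Bounds are apart when the intervals do not overlap. Only the log2 ratio and the comparison of bounds were tested on simulated counts, which held planted changes and no joined or assembled loci. With 1 library per condition no test was run.

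The members and lists were chosen with earlier results of these data known. Genes named are the members, loci overlapping them, listed genes past 2-fold, the 2 highest of each list and the 6 HIF targets with the largest ratio. Other names were chosen after their values were seen. Alternatives were other pseudocounts, scalings, filters, thresholds and choices of locus. Exons and transcripts came from GENCODE v44lift37 on GRCh37, and 50-base runs from its transcripts. Python 3.11.15, numpy 2.4.6, pandas 2.3.3 and matplotlib 3.10.9 were used.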

Additional observations from a re-analysis of the deposited data

How the results depend on the processing

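No paired analysis was possible because there is a single library for each line, and leaving out a library leaves no comparison. Depth limits the members through their bounds, which leave a 1.21-fold difference of EGLN1 apart and the 1.15-fold difference of ARNT overlapping. With FPKM scaled to the named loci the bounds of ARNT also lay apart, making 3 members higher in place of 2. Choices of locus could not move a member, since each had a single locus per library, and their values only repeat the main ones. With these repeats included, all 55 values of single members under the other pseudocounts, scalings, centring and choices of locus lay within the range of their bounds. That count leaves out scaling by the sum over all loci, which counts unnamed loci (65.3% of the summed FPKM in EV and 44.9% in PRSS35). This last scaling moved the median of expressed genes to 0.68. Under it the log2 ratios were 0.68 for HIF1A, 0.77 for EPAS1, 0.79 for ARNT, 0.83 for EGLN1, 0.49 for the EGLN2 locus, 0.98 for VHL and 0.66 for HIF1AN, with a median over the members of 0.72. Bounds then lay apart and higher for 7 members and lower for 0, with 87.8% and 1.80% over all expressed genes, and 1064 expressed genes were higher and 104 lower by 2-fold, in place of 192 and 186. Of the listed pathway genes 11 were then higher and 0 lower, in place of 2 and 1, and the median of the HIF targets was 0.90. With only loci that carry a single name EGLN2 had no value and 0 members were lower with bounds apart. Counts of expressed genes past 2-fold were 91 higher and 90 lower with a pseudocount of 5 FPKM, 106 and 95 with a mean FPKM of at least 5, 17 and 16 among genes that kept their annotated locus in both libraries, and 123 and 114 among genes above 0 in both. For listed pathway genes the counts were 0 lower with a pseudocount of 5 FPKM, 8 higher and 2 lower at 1.5-fold, 1 higher and 0 lower with annotated loci, and 0 higher with genes above 0 in both. The median of the HIF targets was 0.18 with a pseudocount of 5 FPKM. Restrictions to annotated loci and to genes above 0 in both, and the bounds under other scalings, were added after the data had been seen. The cause of these shifts was not tested.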

Other observations

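HIF alpha subunits and ARNT belong to the bHLH-PAS family of transcription factors, which also holds dioxin, circadian and neuronal factors. Of 11 other members of the family, 6 were expressed in these PLC libraries, with a median log2 ratio of 0.17, and bounds lay apart with PRSS35 higher for 2 and lower for 0. Over all expressed genes the median was 0.06, and 24.7% were higher and 14.3% lower with bounds apart. AHR, the dioxin receptor, was at 2.79 FPKM (bounds 2.54 to 3.04) in EV and 3.33 FPKM (bounds 3.06 to 3.60) in PRSS35. NPAS2, a partner in the circadian clock, was at 1.81 FPKM (bounds 1.55 to 2.07) and 2.39 FPKM (bounds 2.105 to 2.680). NPAS1 was at 23.8 and 22.8 FPKM with overlapping bounds. AHRR, a repressor of AHR, was counted in a locus joined with PDCD6, at 105.4 and 116.5 FPKM with overlapping bounds. ARNT2, the closest relative of ARNT, was near 0, at 0.0202 FPKM in EV and 0.00505 FPKM in PRSS35, also in a joined locus. EPO, the best known target of EPAS1, was below 1 FPKM in both libraries, at 0.0302 FPKM in EV and 0.386 FPKM in PRSS35, where its locus was assembled from reads.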
